A study of Mus musculus with 12 samples.

Results

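The comparison described here sets 3 mouse embryos homozygous for a human sequence variant knocked into the LC1 element against 3 wild-type embryos of the same experiment, which the sample titles call RKI. Its 6 libraries were chosen by the group name in their titles and are 6 of the 12 libraries of the series. All 12 are whole brains of embryonic day 14.5 (strain C57BL/6J), 1 embryo each, sequenced from polyadenylated RNA. Per the labels, each mutant was compared with wild types of its sex and litter. The RKI wild types are A2 (male), A9 (female) and A16 (male), and the homozygotes are A1 (male), A10 (female) and A18 (male). The other 6 libraries, 3 LC1 wild types and 3 LC1 knockouts lacking the element, are all from females and share no embryo with the RKI groups. Litters are not named, so the neighbouring embryo numbers A1/A2, A9/A10 and A16/A18 were used as pairs only in an alternative model. How many founders or clones the knock-in line came from is not stated, and the gene counts do not read the variant itself.

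LC1 is a conserved non-coding element upstream of Pou3f2. Pou3f2 encodes BRN2, a POU class III transcription factor of neural progenitors and young neurons, which is known for its part in cortical neurogenesis and in neuroendocrine neurons of the hypothalamus. Pou3f1, Pou3f3 and Pou3f4 encode closely related factors that overlap with it in the embryonic brain. The title of the series ties the variant to cognition and bipolar disorder, and the comparison asks which transcripts differ when it replaces the mouse base sequence on both chromosomes.

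Total gene counts ran from 20247871 to 26566769 in the RKI libraries, and 16002 genes passed the low-count filter. Neuronal markers were abundant: Tubb3, neuronal tubulin, lay at 1305 to 1587 RPKM in the 6 embryos, and the progenitor factor Sox2 at 47.2 to 51.3 RPKM. En1, a midbrain and hindbrain factor, reached 0.363 RPKM at most, and the hindbrain gene Hoxb2 was listed at 0 in all 6, so defining markers of the posterior brain were near 0 although the label says whole brain. The wild-type embryo A16 stood apart. Over all genes it lay a median of 0.113 log2 units from the middle of the 12 libraries, against 0.0625 to 0.0833 in the other RKI embryos and 0.111 in LC1 wild type 6, and results that rest on it are given with and without it. In bulk tissue, fewer cells of a type and less RNA per cell cannot be told apart.

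No gene passed an adjusted p of 0.05 by edgeR's quasi-likelihood test (0 of 16002, 0.0%), nor by DESeq2 or limma, and the smallest adjusted p by edgeR was 1. At an unadjusted p under 0.05 there were 307 genes (1.92%), 150 higher (0.937%) and 157 lower (0.981%) in homozygotes. That is a smaller share than the 0.05 a calibrated test would give if no gene differed. Leaving out A1 gave 1 gene past the threshold, Crb1, and leaving out A9 or A10 gave 2, Wdfy1 and Mir99ahg, with 1323 and 1342 at an unadjusted p under 0.05. Without a low-count filter 26 genes passed (0.0993% of 26194), in a fit that left no gene a spread of its own. The median log2 fold change was 0.00, and 50.6% of genes were higher in homozygotes. The 95% intervals bound the size of each difference. For 9558 genes (59.7%) the interval of the homozygote to wild-type ratio lay within 1.25-fold either way, for 12846 (80.3%) within 1.5-fold, and for 14859 (92.9%) within 2-fold. The 3 values of each genotype did not overlap in 907 genes (5.67%), 415 higher (2.59%) and 492 lower (3.07%), which is the background for the counts of that kind below.

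Pou3f2, which the element lies upstream of, and its family were level in RNA of the whole brain. Differences confined to some cells or regions could not be read. Pou3f2 (chr4:22482780-22488366, GENCODE M21 on GRCm38) stood at 97.0, 97.8 and 90.9 CPM in wild types A2, A9 and A16 and at 97.1, 95.8 and 91.4 CPM in A1, A10 and A18, where CPM is the count as a share of the TMM-scaled library total. Embryos keep this order below. The groups overlapped, and the log2 difference was -0.01 (SE 0.0644) with a 95% interval of -0.14 to 0.13. An exact two-sided permutation test of the 3 against 3 values gave p = 0.8, where the smallest p this design allows is 0.1. Per length of transcript, the authors' RPKM put Pou3f3 highest of the 4 factors, at 37.1 ± 2.84 RPKM in homozygotes (SD, n = 3). Pou3f2 followed at 16.9 ± 0.678 RPKM, and Pou3f4 and Pou3f1 at 12.1 ± 1.51 and 11.9 ± 0.257 RPKM did not differ beyond their spread. The log2 differences between genotypes were 0.05 (SE 0.0878) for Pou3f1, -0.05 (SE 0.0801) for Pou3f3 and 0.05 (SE 0.0904) for Pou3f4. Each of these 4 differences changed sign when some single embryo was left out.

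The listed genes around Pou3f2 were also level with 1 exception. Of the 17 genes listed, Pou3f2 included, 15 were tested, Fhl5 was below the filter and Mchr2 was not analysed here. The median log2 difference was 0.04 over these 15, 8 of 15 were higher, and none passed. Fbxl4, the nearest tested neighbour in the list, is a mitochondrial protein gene whose start lies 0.125 Mb from that of Pou3f2. It had -0.23 (SE 0.129), and -0.12 without A16. Usp45, a deubiquitinase gene on the same side, had 0.11 (SE 0.0795). Klhl32, a kelch-like gene 2.13 Mb to the other side, was the exception. It stood at 16.7, 18.2 and 14.1 CPM in the wild types and at 21.2, 20.8 and 20.8 CPM in homozygotes, against 14.7 to 18.7 CPM in the 6 LC1 libraries. All 3 homozygotes therefore lay above the 9 other libraries, which was so for 33 of all genes tested (0.206%). Its log2 difference of 0.36 (SE 0.0990), 0.28 without A16, did not pass (edgeR adjusted p = 1). Within 3 Mb of Pou3f2, genes outside the list included, 3 of 22 did not overlap between genotypes (13.6%). The background is 5.67%, and the difference of so small a count from it was not tested. The log2 differences of these 22 ran from -0.63 to 0.44 with a median of 0.01. Only 1 of them, Klhl32, had an unadjusted p under 0.05 by edgeR. Within 10 Mb 3 of 42 did not overlap (7.14%), and within 25 Mb 10 of 219 (4.57%), near the background.

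**Figure D1:**
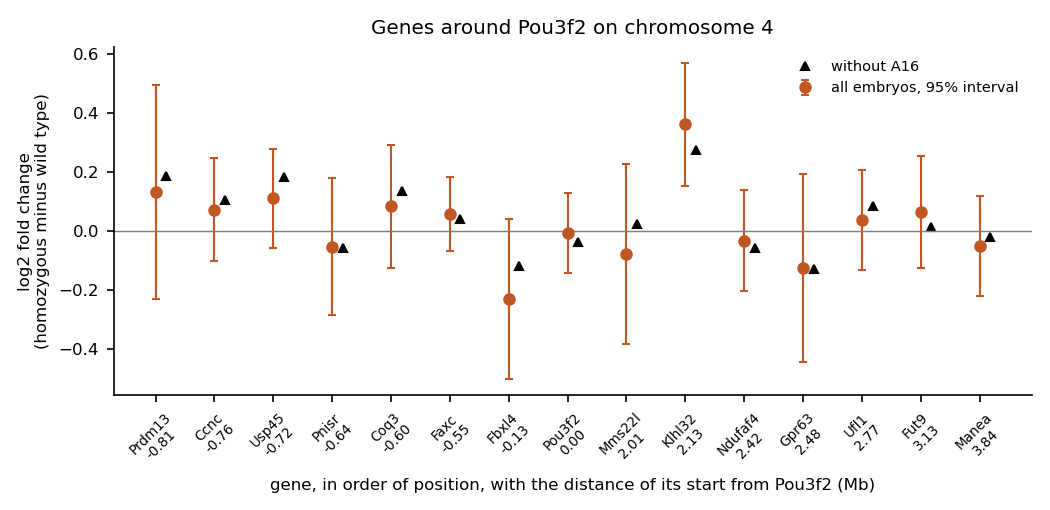
Log2 fold change of the 15 tested genes of the list around Pou3f2 (y axis, homozygous minus wild type) in order of position. The distance of each start from that of Pou3f2 in Mb is under the name. Circles are the fit with all embryos, bars its 95% intervals, and triangles the fit without A16. Only the bar of Klhl32, at 0.36, lies wholly above 0, and Pou3f2 lies at -0.01.

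Among genes at 1 CPM or more, those higher in homozygotes with the smallest p included several transcription factors of the thalamus and midbrain. Shox2, a homeobox factor, stood at 14.6, 15.8 and 9.55 CPM in the wild types and at 19.2, 20.1 and 18.1 CPM in homozygotes. Tcf7l2, a Wnt pathway transcription factor abundant in the thalamus, stood at 212, 267 and 143 CPM and at 298, 305 and 267 CPM. Lhx1, a LIM homeobox factor, stood at 33.0, 35.6 and 27.7 CPM and at 39.9, 40.3 and 37.2 CPM. In all 3 the genotypes did not overlap, although A9 and A18 were level for Tcf7l2, and A16 was the lowest of the 12 libraries. The LC1 libraries covered or exceeded the homozygotes, at 18.1 to 20.7 CPM for Shox2, 266 to 322 CPM for Tcf7l2 and 40.5 to 45.7 CPM for Lhx1. The log2 differences of 0.53 (SE 0.117), 0.51 (SE 0.139) and 0.29 (SE 0.0766) became 0.35, 0.32 and 0.20 without A16.

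The same held for most of the other genes named on this side. A16 was the lowest of the 12 libraries in 8 of the 10 genes, and the homozygote mean lay within the range of the LC1 libraries in 7. Gata3, a selector of GABAergic midbrain neurons, had the greatest difference of the 10, 1.25 (SE 0.347), at 2.69, 5.14 and 2.03 CPM in wild types against 10.3, 7.72 and 4.73 CPM in homozygotes. Its groups overlapped, because A18 lay below A9. Fabp3, a fatty acid binding protein, stood at 5.22, 7.27 and 5.32 CPM and 7.50, 9.63 and 8.28 CPM, a difference of 0.52 (SE 0.131) that hardly moved without A16 (0.51). Adra1a, an adrenergic receptor, had 0.47 (SE 0.135), Mab21l2, a developmental gene of eye and midbrain, 0.57 (SE 0.161), and Chrna4, a nicotinic receptor subunit, 0.29 (SE 0.0881). The pseudogene Tmem181b-ps had 0.60 (SE 0.173) and is uncertain, since reads may be shared with its parent gene. Across the 10, the smallest and greatest difference were 0.29 and 1.25 with A16 and 0.17 and 1.04 without it.

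The genes lower in homozygotes were less tied to A16. It was the highest of the 12 libraries in 3 of 10. The sizes of the differences ran from 0.28 to 1.03 with A16 and from 0.30 to 1.07 without it. Without A16, all 10 lower genes and all 10 higher genes kept their sign and an unadjusted p under 0.05 by edgeR. Both sets were picked by p in a fit that holds the same other embryos, so this was largely fixed by the choice. Of the 10 lower genes 9 did not overlap between genotypes (3.07% of all genes), but they were picked by p in this same comparison. Htra1, a secreted serine protease, stood at 17.7, 16.6 and 16.7 CPM in the wild types and at 14.4, 13.6 and 14.1 CPM in homozygotes. The LC1 libraries, at 13.7 to 14.8 CPM, lay beside the homozygotes, so for Htra1 the RKI wild types were the ones apart. Over the 10 lower genes, the homozygote mean lay within the range of the LC1 libraries in 4, against 7 of the 10 higher genes. In 2 of the 10 lower genes all homozygotes lay below the 9 other libraries (0.281% of all genes). Rbm47, an RNA-binding protein, stood at 7.24, 7.40 and 9.73 CPM in wild types against 4.64, 5.60 and 5.30 CPM in homozygotes, with 4.71 to 7.26 CPM in the LC1 libraries. Wnt3a, the Wnt ligand of the cortical hem, stood at 4.79, 3.05 and 4.87 CPM and 2.43, 2.56 and 2.71 CPM, a difference of -0.71 (SE 0.195). Prelp, a matrix proteoglycan, had -0.35 (SE 0.107), Dusp14, a phosphatase, -0.35 (SE 0.106), and Fkbp11, a protein-folding enzyme of the endoplasmic reticulum, -0.97 (SE 0.284). Of the gene models without a described function, Gm20667 had -0.73 (SE 0.189) and 2310034G01Rik -0.74 (SE 0.223).

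Crb1 was lower in the homozygotes than in every other library. This gene is also on the list of genes known to differ between C57BL/6 substrains, taken up below, and the part of such differences was not tested. Crb1 belongs to the Crumbs complex, which holds the apical side of epithelial and neural progenitor cells. It stood at 21.8, 14.5 and 19.9 CPM in the wild types, 14.0, 7.37 and 6.30 CPM in homozygotes and 21.6 to 27.2 CPM in the LC1 libraries. The lowest wild type and the highest homozygote, A9 and A1, were nearly level, and the difference of -1.03 (SE 0.212) had an adjusted p of 1 by edgeR. Only 45 genes (0.281%) had all homozygotes below the 9 other libraries, and Gm20667 was another of them. Of the 15 tested genes of apical polarity, Crb1 included, 11 were lower with a median of -0.04. Without A16 the median was -0.002 and 6 of 15 were higher. Crb2, a paralogue of Crb1, had -0.16 (SE 0.0802) with all embryos.

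With neighbouring embryo numbers as a block in place of sex, 2 genes passed in the fit of 12 libraries (0.0125% of 16002), Crb1 and Ubxn2b, both at an edgeR adjusted p of 0.0346. Ubxn2b encodes a cofactor of the p97 segregase and lies on chromosome 4, 16.3 Mb from Pou3f2. It stood at 58.2, 54.6 and 41.5 CPM in A2, A9 and A16 and at 42.9, 40.9 and 28.6 CPM in A1, A10 and A18. The genotypes overlapped as groups, yet each homozygote lay below its neighbour in number, and the LC1 libraries lay at 49.4 to 57.5 CPM. With a block in both experiments, 3 genes passed (0.0187%): these and Esrrb, an orphan nuclear receptor, at 0.0289 each. Esrrb stood at 3.07, 3.55 and 1.04 CPM and 5.59, 7.27 and 2.67 CPM, and each homozygote lay above its neighbour. With the 6 RKI libraries alone and the block, none passed. The numbers are not shown to mark litters. In the authors' deposited table Crb1 had an adjusted p of 0.138 and Ubxn2b 0.275, and none of the 26194 genes listed passed 0.05.

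**Figure D2:**
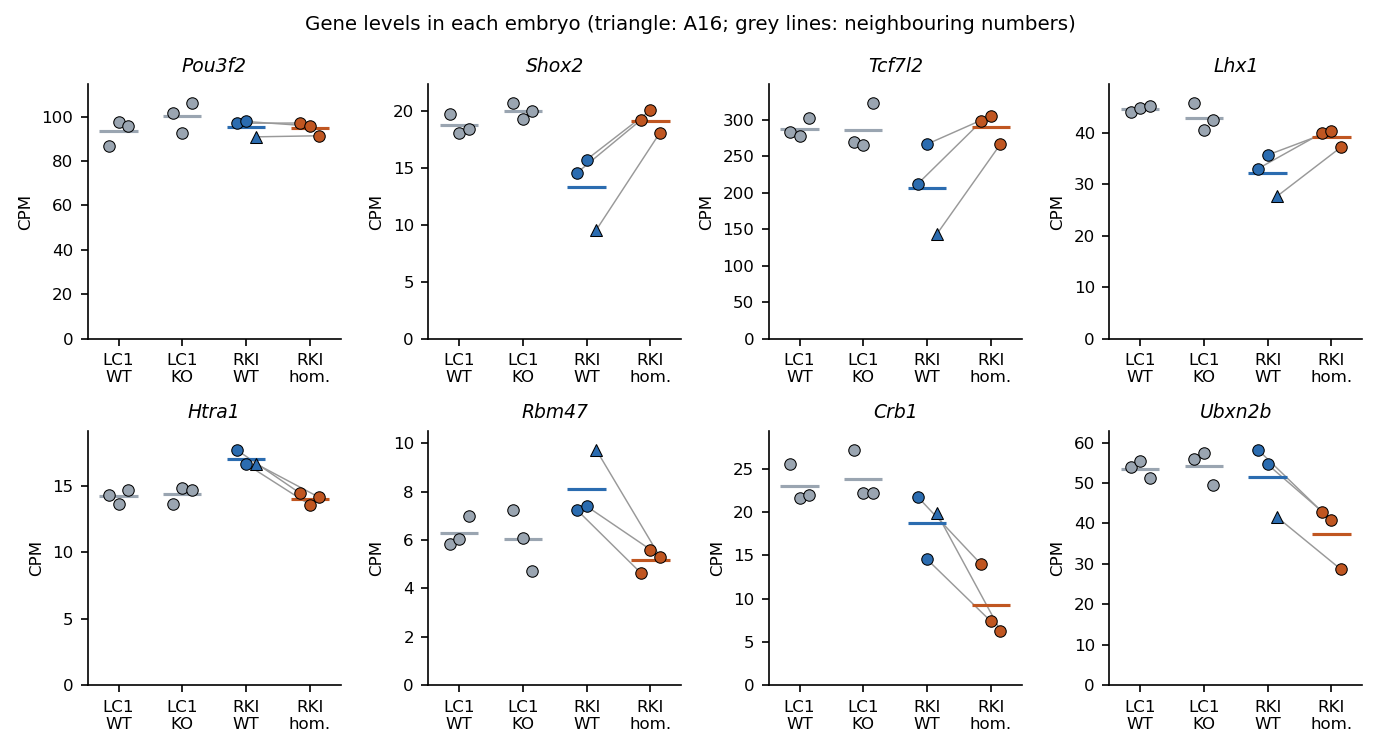
Level of 8 genes in each embryo (y axis, CPM from 0), with LC1 wild types and knockouts in grey, RKI wild types in blue and RKI homozygotes in orange. Bars are group means, the triangle is A16 and grey lines join neighbouring RKI numbers. Pou3f2 is level, A16 is the lowest point of Shox2, Tcf7l2 and Lhx1, and for Crb1 and Ubxn2b every line runs downward from wild type to homozygote.

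Gene groups were described by counts and medians, beside the median of 0.00 and the 50.6% higher over all genes. The lists were chosen with earlier results of these data known. Some hold genes already named above for their small p, such as Shox2, Tcf7l2, Lhx1 and Gata3, so their counts are not independent of that choice. Groups of the cortical lineage lay below that. Of the radial glia genes 14 of 17 were lower (median -0.13), of the intermediate progenitor genes 10 of 10 (median -0.14) and of the pallial neuron genes 14 of 16 (median -0.09). None of their members passed. Among radial glia genes Emx2 and Lhx2, patterning factors of the pallium, had -0.19 (SE 0.0754) and -0.19 (SE 0.0857). Among intermediate progenitor genes the proneural factor Neurog1 had -0.47 (SE 0.271), and Mfap4, a matrix protein gene, -0.17. Without A16 the medians were -0.07, -0.10 and -0.10, so of the 3 only that of pallial neurons was no nearer to 0.

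The pallial neuron genes differed by small steps. Fezf2, which specifies subcerebral projection neurons, stood at 131, 119 and 123 CPM in the wild types and at 117, 109.6 and 108 CPM in homozygotes, with 94.2 to 109 CPM in the LC1 libraries. Nfia, a nuclear factor I gene, stood at 336, 274 and 324 CPM and 285, 253 and 286 CPM. The log2 differences were -0.16 (SE 0.0580) and -0.18 (SE 0.0653), and that of Tbr1, a factor of early cortical neurons, was -0.11 (SE 0.0659). The summed level of the list was 5673, 5221 and 5319.6 CPM in wild types against 5258, 4796 and 5247 CPM in homozygotes, so A1 and A18 lay between A9 and A16. The summed level in the LC1 libraries was 4697 to 5090.3 CPM, a range that held A10 alone of the RKI embryos. The cortical hem and Wnt list had 14 of 18 lower with a median of -0.12 (-0.09 without A16). In it Rspo3, a secreted enhancer of Wnt signalling, stood at 46.3, 34.6 and 54.5 CPM and 40.3, 33.0 and 38.8 CPM.

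Lists named for the thalamus, midbrain and ventral forebrain lay above the median of all genes with all embryos. En1 reached 0.363 RPKM at most in the 6 RKI embryos, and the region this RNA came from was not tested. Of the GABAergic selector genes of midbrain and hindbrain 11 of 13 were higher, with a median of 0.30, and 12 of 13 with a median of 0.37 without A16. An unadjusted p under 0.05 was reached by 4 of them, all higher (0.937% of all genes). These were Gata3 and Lhx1, given above, Tal1 at 0.68 (SE 0.214) and Gata2 at 0.45 (SE 0.145). The homozygote means of 11 of the 13 lay within the range of the LC1 libraries. Thalamus and pretectum genes were higher in 12 of 16 (median 0.11, 0.04 without A16). At an unadjusted p under 0.05 by edgeR, 5 of these 16 were higher (0.937% of all genes) and 2 lower (0.981%). The 2 were Lhx2, also in the radial glia list, and Wnt3a at -0.71. Lhx1 and Lhx5 count both in this list and in that of the selectors. Subpallial and GABAergic genes were higher in 18 of 22 (median 0.09, 0.06 without A16). Among them the GABA-synthesis gene Gad2 had 0.17 (SE 0.0846) and the vesicular GABA transporter Slc32a1 0.23 (SE 0.148). The dopamine transporter gene Slc6a3, at 1.41 CPM in homozygotes, had 1.02 (SE 0.558), and tyrosine hydroxylase, Th, 0.11 (SE 0.127). Other regional genes of midbrain and hindbrain were higher in 8 of 11 (median 0.11), and in 5 of 11 without A16 (median -0.10). A16 was the lowest or joint lowest of the 12 libraries in 9 of these 11. Gata2 and Tal1 also act in blood formation. The erythroid list was higher in 11 of 15 (median 0.12) and in 14 of 15 without A16 (median 0.39). Its summed level was 1096, 1163 and 2059.8 CPM in wild types against 1154, 1745 and 1382 CPM in homozygotes, and its part in the result was not tested.

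The direction of proliferation and synapse genes depended on A16. All 26 proliferation genes had negative differences, with a median of -0.14, and A16 was the highest of 12 libraries in 25 of them. Aurkb, a mitotic kinase, stood at 27.8, 26.6 and 36.4 CPM in wild types against 24.0, 25.2 and 26.3 CPM in homozygotes, and Cdc20, an activator of the anaphase-promoting complex, had -0.19 (SE 0.0913). Without A16, 20 of 26 were higher and the median was 0.05. Of the synapse and excitability genes 24 of 25 were higher (median 0.07), with A16 the lowest library in 17, and 7 of 25 were higher without it (median -0.03). In that list Gabra3 and Cacna1a, a GABA-A receptor subunit and a calcium channel, had 0.17 (SE 0.0860) and 0.14 (SE 0.0749), and 0.07 and 0.07 without A16. The Notch list had 12 of 16 lower (median -0.07) and a median of 0.00 without A16. Its members with the smallest p were the target genes Hes1 at -0.30 (SE 0.133) and Heyl at 0.19 (SE 0.0947), of opposite sign.

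Lists of POU factors, neuroendocrine genes and amygdala genes had medians near 0. The POU and PAX6 partner list had 7 members higher and 7 lower with a median of 0.00, and within it Nes, the progenitor filament gene, had -0.13 (SE 0.0992) with all embryos and 0.00 without A16. Of the hypothalamic and neuroendocrine genes 8 of 17 were higher (median -0.02, 0.02 without A16). Sim1 and its partner Arnt2, which specify neuroendocrine neurons, had 0.20 (SE 0.129) and 0.08 (SE 0.0608). The amygdala list had 8 of 13 higher (median 0.03), with Lhx5 at -0.13 (SE 0.0711). Genes at bipolar disorder loci had 8 of 15 higher with a median of 0.01, but 1 of 15 with a median of -0.05 without A16, which was the lowest of the 12 libraries in 6. The members with the smallest p, the sodium channel Scn2a and the adenylyl cyclase Adcy2, had 0.12 (SE 0.0902) and 0.12 (SE 0.0985).

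Markers of other tissues were checked for the same embryos. Choroid plexus genes were lower in 10 of 14 (median -0.14, -0.05 without A16), and 4 of the 14 did not overlap between genotypes, all lower (3.07% of all genes). Slc4a5, a bicarbonate transporter of the plexus, stood at 11.1, 10.1 and 12.8 CPM in the wild types and at 8.06, 8.50 and 8.70 CPM in homozygotes, and Foxj1, the ciliogenesis factor, at 40.2, 38.9 and 48.3 CPM and 36.4, 37.4 and 37.5 CPM. The summed level of the list was 899, 917 and 1018 CPM in wild types against 868, 849 and 878 CPM in homozygotes. It was thus lower in every homozygote, within the 751 to 1031 CPM of the LC1 libraries, and its part in the lower Wnt3a and Rspo3 was not tested. Endothelium and microglia lists had medians of -0.02 and 0.03. The meninges list had 9 of 16 higher (median 0.00) and 14 of 16 without A16 (median 0.05). Smaller lists lay further from 0, with medians of -0.16 over 6 skin genes, -0.11 over 8 genes of cartilage, bone and muscle, -0.10 over 8 eye genes and 0.14 over 3 genes of pituitary and olfactory epithelium. Without A16 these were -0.13, -0.05, -0.01 and 0.03. The summed levels of these 7 lists overlapped between genotypes, and their part in the results was not tested.

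**Figure D3:**
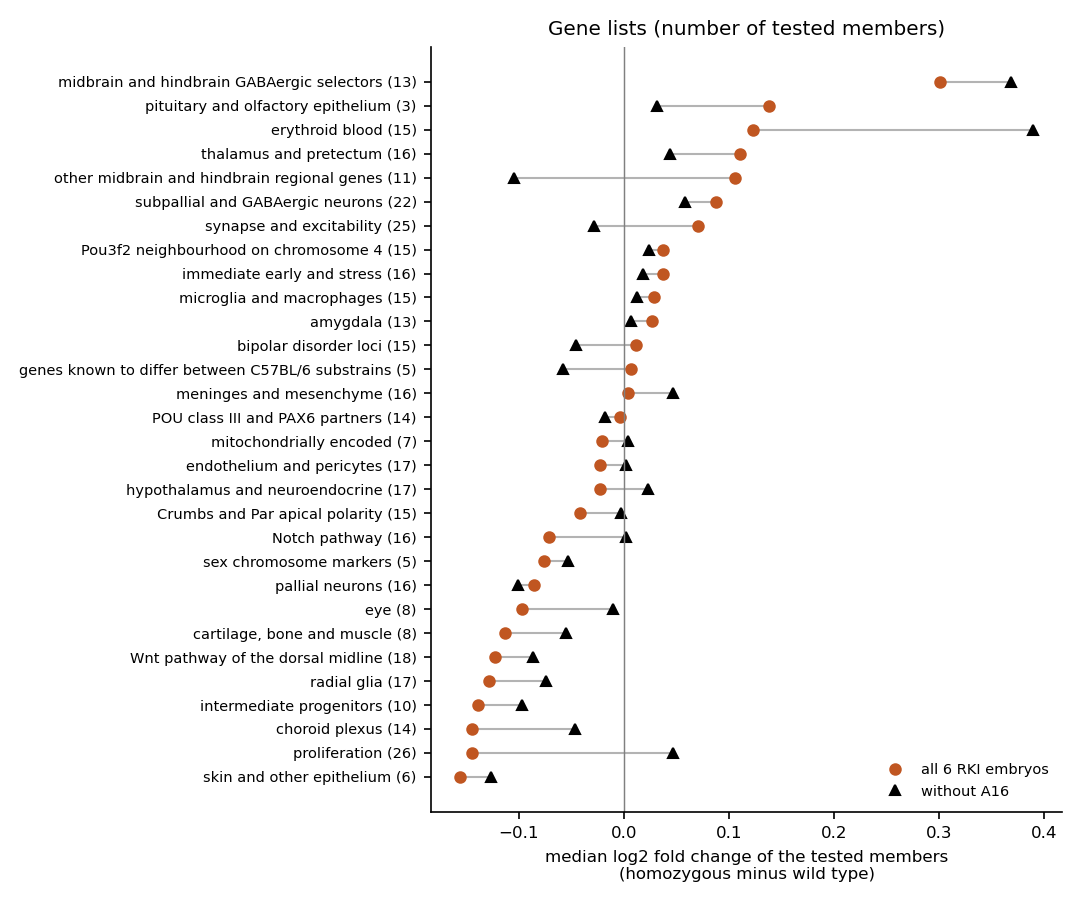
Median log2 fold change (x axis, homozygous minus wild type) of the tested members of each gene list, with all 6 RKI embryos (circles) and without A16 (triangles). Proliferation lies at -0.14 and 0.05, synapse and excitability at 0.07 and -0.03, and pallial neurons at -0.09 and -0.10.

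The 2 transcripts with the smallest p came from a repeated region of chromosome 4. No transcript of 47772 passed an adjusted p of 0.05 by edgeR (0.0%), 1172 had an unadjusted p under 0.05 (2.45%), and the 3 values of each genotype did not overlap in 3660 (7.66%), 1795 higher (3.76%) and 1865 lower (3.9%). The smallest adjusted p was 0.0588, shared by Gm10600-201 and Gm5859-001, which passed without a low-count filter (2 of 65339, 0.00306%). Leaving out an embryo gave 3 transcripts past the threshold without A1 (among them Gm5859-001), 3 without A9 and 7 without A10 (both times with Gm13301-001), and none otherwise. Together with Gm13301-001 and Gm2163-201 these make 4 of the 8 transcripts with the smallest p, and all 4 lie on the chromosome of Pou3f2, 19.7 Mb from it or a little more. Gm10600 and Gm2163 are predicted protein-coding genes and Gm5859 and Gm13301 pseudogenes, and all are near-identical in part to other genes. Of the 50-base words in each transcript, 92.5% of those of Gm10600-201 also occur in a transcript of another gene of GENCODE M21. The share was 89.1% for Gm5859-001, 86.2% for Gm13301-001 and 88.4% for Gm2163-201, in each case over 18 other genes. Stretches of 90 bases of 3 of these transcripts follow, from GENCODE M21 on GRCm38, plus strand. Capitals mark bases that belong to a 50-base word found in no other gene, and lower case marks bases shared throughout. Each stretch was picked to hold the 2 kinds of base in parts as near to equal as found. In each, 45 of the 90 bases are capitals, so the stretches do not show the share over a whole transcript.
Gm10600-201, chr4:42241341-42241430, in its exon: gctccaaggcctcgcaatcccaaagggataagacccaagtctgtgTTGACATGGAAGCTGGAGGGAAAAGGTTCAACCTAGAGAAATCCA
Gm5859-001, chr4:42237216-42237305, in the exon of the pseudogene: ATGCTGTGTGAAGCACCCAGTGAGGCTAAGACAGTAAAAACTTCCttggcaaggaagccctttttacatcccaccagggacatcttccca
Gm13301-001, chr4:42219589-42219678, in exon 4 of the pseudogene: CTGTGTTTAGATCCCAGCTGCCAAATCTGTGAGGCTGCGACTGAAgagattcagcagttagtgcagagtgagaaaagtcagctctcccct

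Each of these transcripts was low in all 3 homozygotes and in no other library. Gm10600-201 stood at 17.7, 15.3 and 14.5 CPM of estimated counts in wild types, at 3.05, 2.14 and 2.10 CPM in homozygotes and at 11.7 to 21.4 CPM in the LC1 libraries. Gm5859-001 stood at 7.40, 6.20 and 8.97 CPM, 0.715, 0.168 and 0.333 CPM and 5.49 to 10.1 CPM in the same order. Gm13301-001 stood at 10.1, 8.12 and 9.12 CPM in the wild types and 6.83 to 11.2 CPM in the LC1 libraries, was listed at 0 in A1 and A18, and stood at 0.335 CPM in A10. LC1 knockouts and wild types did not differ in this way, since all 6 LC1 libraries lay with the RKI wild types. The log2 difference was -2.70 (SE 0.249) for Gm10600-201, or 6.52-fold lower, and -4.29 (SE 0.410) for Gm5859-001. Gm2163-201 was lower by a smaller step, -1.29 (SE 0.179), with 6.15, 6.92 and 5.57 CPM in wild types against 2.63, 2.68 and 2.26 CPM in homozygotes. Without A16 the differences were -2.80, -4.31 and -1.34 for these 3.

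A window of 1.1 Mb around these transcripts, drawn after their values were seen and given as a description, held 17 tested transcripts of 15 genes. All 17 had a negative difference, whereas 49.9% of all transcripts had a positive one. Because the transcripts checked share words with other genes, the 17 signs are not independent. Only 8 had an unadjusted p under 0.05 by edgeR (2.45% of all transcripts, either way). The median of -1.77 is that of Gm20878-006 (SE 1.79), at 0.283 CPM in wild types, and Gm21541-001 was above 0 in A2 alone of the RKI embryos. Without A16, Fam205c-004, 4930578G10Rik-201 and Gm20878-002 had positive differences of 0.29, 0.10 and 0.05. Of the 17, 9 did not overlap between genotypes, all lower (3.9% of all transcripts), and 8 lay below the 9 other libraries in every homozygote (0.304% of all transcripts). Fam205a4-001, Gm17081-001 and Gm3883-001 were among these, at -1.14 (SE 0.289), -3.31 (SE 0.844) and -0.70 (SE 0.180). The difference was not uniform. Gm20878-002, in the same window and with 50.9% of its words in other genes, stood at 5.88, 6.20 and 6.12 CPM in wild types against 6.36, 7.71 and 4.26 CPM in homozygotes. The summed level of all listed transcripts of the window was 99.4, 89.3 and 81.7 CPM in wild types against 39.2, 38.4 and 33.7 CPM in homozygotes. That is 2.43-fold lower, and the LC1 libraries averaged 89.0 ± 11.3 CPM (SD over 6 embryos).

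The gene counts do not show the region. Of its 41 listed genes, 38 had 10 counts or fewer over all 12 libraries, among them Gm10600, Gm5859, Gm13301 and Gm2163, and only Fam205c was tested, at 0.00 (SE 0.400). How reads that match several genes entered either table is not stated in the labels. Genes within 2 Mb on either side did not share the shift: of 73 tested, 2 had an unadjusted p under 0.05 (1.92% of all genes), 4 did not overlap between genotypes (5.67% of all genes), and the median difference was 0.01. The knock-in allele and whatever else the homozygotes inherited on the same chromosome cannot be told apart in this design.

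**Figure D4:**
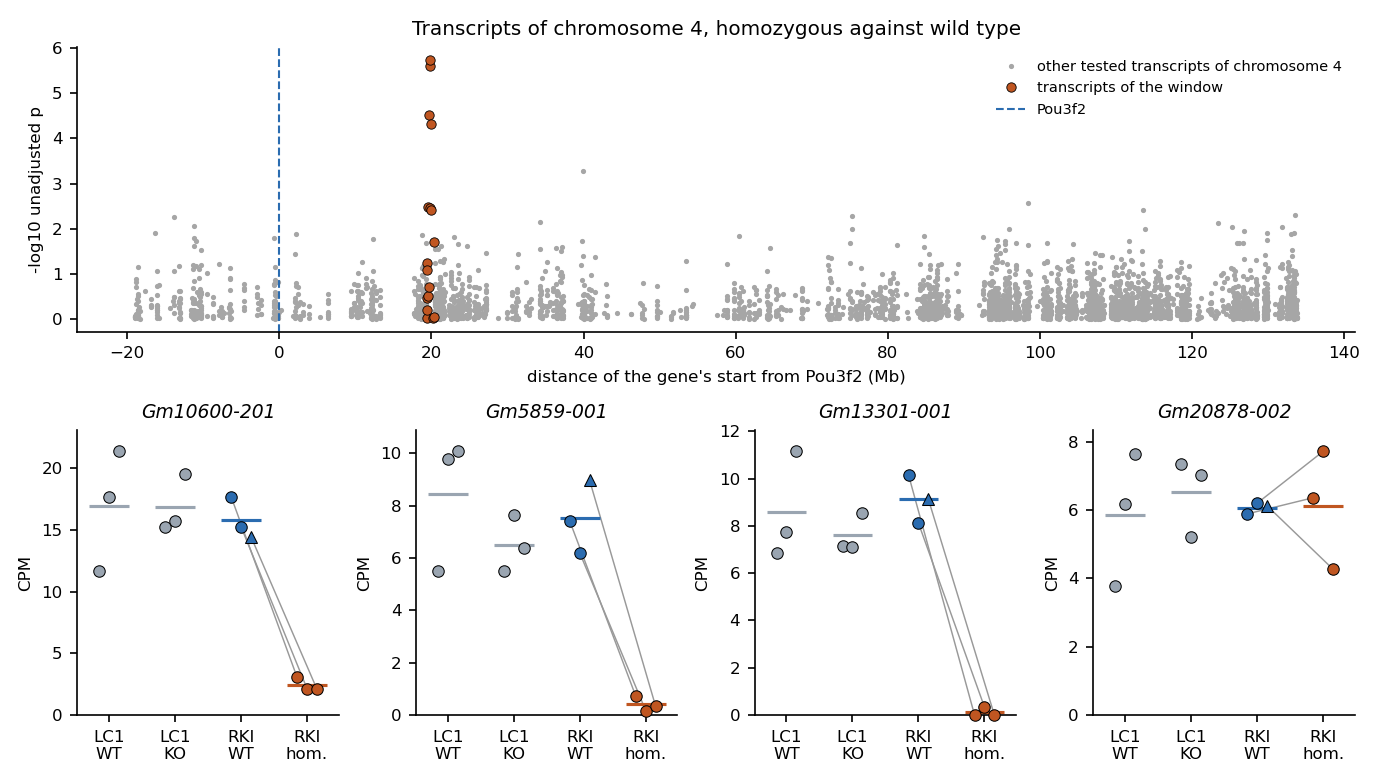
Top, unadjusted p of each tested transcript of chromosome 4 on a -log10 scale (y axis) against the distance of its gene's start from Pou3f2 in Mb (x axis, dashed line at Pou3f2), with the 17 transcripts of the window in orange. Bottom, levels in each embryo (y axis, CPM from 0) of 3 of these and of Gm20878-002, with group means as bars, A16 as a triangle and grey lines joining neighbouring RKI numbers. The 3 homozygotes lie at 2.10 to 3.05 CPM for Gm10600-201, against 11.7 CPM or more in the LC1 libraries, while Gm20878-002 is level.

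The other 4 of the 8 transcripts were isoforms of genes whose total did not follow. Rbm39-025, an isoform of a splicing factor gene annotated for nonsense-mediated decay, stood at 22.6, 17.4 and 25.3 CPM in the wild types, 3.42, 4.11 and 2.86 CPM in homozygotes and 8.91 to 27.2 CPM in the LC1 libraries. Its difference was -2.65 (SE 0.374), against -0.05 (SE 0.0617) for the gene. Slbp-010, Ergic2-010 and Phc3-202, isoforms of a histone mRNA-binding protein, a secretory pathway protein and a Polycomb protein, were listed at 0 in all 3 homozygotes. They stood at 0.826, 0.471 and 2.69 CPM, 0.959, 2.57 and 0.948 CPM and 1.29, 6.30 and 0.513 CPM in wild types. Their genes had differences of -0.07, 0.01 and 0.01. Of the 47772 transcripts, 66 were listed at 0 in all homozygotes and above 0 in all wild types, and 68 the other way round. Between LC1 knockouts and wild types, 75 were listed at 0 in all knockouts alone and 90 in all wild types alone. An estimated count of 0 can be a failed split between isoforms.

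Of 6 genes known to differ between C57BL/6 substrains, Entpd4 was below the filter and 5 were tested, and some took stepped levels that cut across the genotypes. Wdfy1, an endosomal WD-repeat protein, stood at 22.0 and 19.1 CPM in wild types A2 and A16 and at 65.0 CPM in wild type A9, while homozygotes stood at 65.8, 61.4 and 64.4 CPM. The LC1 libraries, at 21.1 to 24.9 CPM, lay at the lower level. Its difference of 1.05 (SE 0.310) did not pass with all embryos. Without A9 or A10, the only RKI females, the fit compares the 4 males and Wdfy1 passed. Mir99ahg, the host gene of a microRNA cluster, is not on that list and stood at 48.6, 39.7 and 50.9 CPM in wild types against 29.6, 43.9 and 33.4 CPM in homozygotes, and passed in the same settings. The LC1 libraries, at 26.8 to 33.7 CPM, lay with A1 and A18. Nnt, a mitochondrial transhydrogenase, stood at 33.4, 39.2 and 41.9 CPM and 38.1, 28.8 and 50.4 CPM, so that A10 alone lay within the 26.6 to 32.7 CPM of the LC1 libraries. Gabra2, a GABA-A receptor subunit, stood at 35.8 to 41.9 CPM in all 6 RKI embryos and 18.4 to 22.8 CPM in the LC1 libraries. It separated the lines and not the genotypes. Crb1, given above, belongs to the same list, as does Cyfip2, an actin regulator, which had 0.01 (SE 0.0640). The part of substrain differences in the results was not tested.

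**Figure D5:**
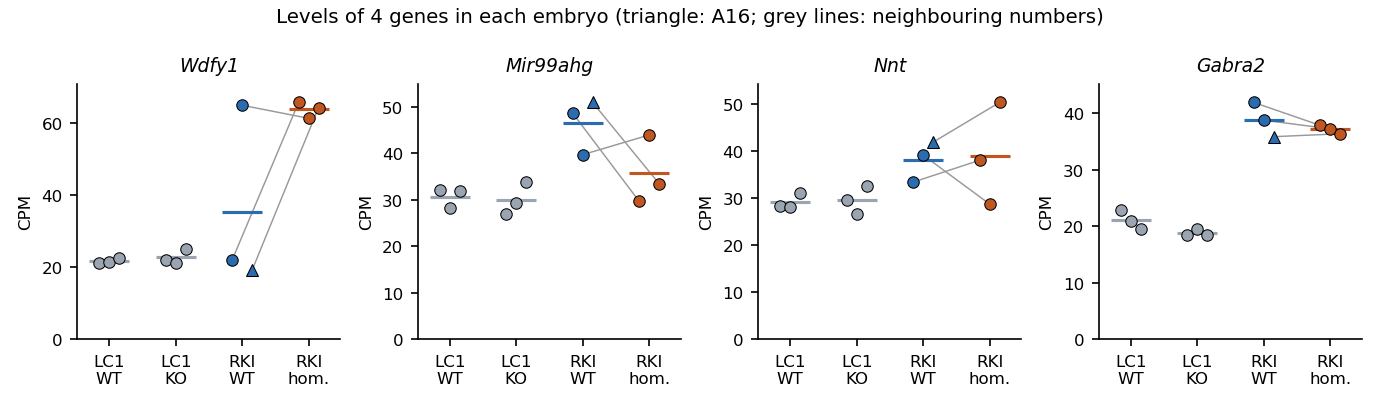
Level of 4 genes in each embryo (y axis, CPM from 0), with group means as bars, A16 as a triangle and grey lines joining neighbouring RKI numbers. Wdfy1 is near 22.0 CPM in A2, A16 and the LC1 libraries and 61.4 CPM or more in A9 and the homozygotes, and Gabra2 is 35.8 CPM or more in every RKI embryo.

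The effect of the knock-in was also set against that of deleting the element. No gene passed for the difference between the effects (0 of 16002, 0.0%), and 388 had an unadjusted p under 0.05 (2.42%). The 5 genes with the smallest p were Nrm, Pax3, Ngb, Corin and Fabp3, all with an edgeR adjusted p of 1. Nrm, which encodes the nuclear envelope protein nurim, had -0.32 (SE 0.105) in RKI and 0.27 (SE 0.107) in LC1. Pax3, a paired box factor of the dorsal neural tube, had 0.90 (SE 0.327) in RKI and -0.82 (SE 0.303) in LC1. Ngb, neuroglobin, had 0.81 (SE 0.357) and -1.08 (SE 0.357), at 0.974 CPM or less on average in every group. Corin, a membrane protease, stood at 0.334 ± 0.131 CPM in homozygotes and was listed at 0 in A2. For Fabp3 the difference was 0.52 (SE 0.131) in RKI and -0.16 (SE 0.134) in LC1.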

How the data were processed

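Polyadenylated RNA of 12 whole brains of mouse embryos was analysed, 1 library an embryo. The authors deposited whole-number counts per gene, RPKM per gene, estimated counts per transcript, and a table of comparisons with log2 fold changes and p-values. STAR 2.0.4b, featureCounts 1.4.5, Subread, limma and edgeR are listed in the submitters' processing notes, with no role for any. Neither the genome build nor the annotation or transcript tool is stated in the labels. The gene table has 41264 rows for 40690 identifiers, and the repeated rows, which were identical, were dropped. Positions come from GENCODE M21 by Ensembl identifier.

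Gene counts were modelled in R 4.3.3 with edgeR 4.0.16 (quasi-likelihood, TMM, filterByExpr by group, robust, Benjamini-Hochberg at 0.05). All 12 libraries entered with 4 group means and sex, leaving 7 residual degrees of freedom and a common biological coefficient of variation of 6.94%. Estimated transcript counts were rounded and tested alike, without their own uncertainty. Fold changes are homozygous minus wild type. DESeq2 1.42.0, limma 3.58.1, other filters, scaling and blocks, and leaving out embryos were tried, and the code was tested on simulated data. Depth limits the precision of low genes.

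Genes named are the POU class III factors and neighbours of Pou3f2, the 10 higher and 10 lower with the smallest p at 1 CPM or more, those passing with a block, 2 members of each list, 8 transcripts, and 5 genes for the difference from LC1. Others were named after their values were seen: Mir99ahg, further list members, the other transcripts of chromosome 4 and the window around them. Members and lists were chosen with earlier results of these data known.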

Additional observations from a re-analysis of the deposited data

How the results depend on the processing

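Where no gene passed with all embryos, none passed with another scaling, a stricter filter, only the 6 RKI libraries, no sex term, DESeq2 or limma-voom (at an unadjusted p under 0.05, 306, 251, 248, 300, 177 and 311 genes). Without a low-count filter 26 genes passed and 748 had an unadjusted p under 0.05. That fit gave every gene 183358 degrees of freedom, against a median of 17.3 with the filter, so no gene kept a spread of its own. Wdfy1, split within the wild types, passed in it. Leaving out an embryo gave 0 to 2 genes past the threshold (Crb1 without A1, Wdfy1 and Mir99ahg without A9 or A10) and 187 to 1342 at an unadjusted p under 0.05. Without the pair A1 and A2 1 gene passed, Crb1, and without A9 and A10 2 passed, Wdfy1 and Mir99ahg, with 1326 at an unadjusted p under 0.05. The replicate block over neighbouring numbers gave 2 genes, 3 with a block in both experiments and 0 with the RKI libraries alone. It changed no other call of a named gene. Over 15359 genes the deviations of neighbours correlated at 0.053, -0.054 and 0.057, those of other wild types and homozygotes at -0.113 to 0.053, and A9 and A10 did not correlate best with each other, so the numbers are not shown to pair the embryos. For transcripts, 2 passed without the filter (Gm10600-201 and Gm5859-001) and 0 with the replicate block, the 6 RKI libraries or limma-voom. Leaving out an embryo gave 0 to 7, among them Gm5859-001 without A1 and Gm13301-001 without A9 or A10.

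Differences near 0 changed sign with the embryos left out. Leaving out each embryo gave -0.0392 to 0.155 for Pou3f1, -0.0415 to 0.0166 for Pou3f2, -0.129 to 0.00667 for Pou3f3 and -0.0867 to 0.126 for Pou3f4. It gave -0.264 to 0.000944 for Nes, -0.0101 to 0.208 for Scn2a, -0.175 to 0.237 for Nnt, -0.126 to 0.00328 for Gabra2 and -0.0584 to 0.0853 for Cyfip2. Without both A9 and A10 the values were 0.00478 for Pou3f2 and 0.00628 for Pou3f3, and without both A1 and A2 -0.0777 for Nnt. Without both A16 and A18 they were -0.0739 for Pou3f1, -0.109 for Pou3f4, -0.0890 for Cyfip2, 0.0324 for Nes, 0.00612 for Mfap4 and -0.120 for Nnt. Low levels limit the estimates of Corin, Ngb and the transcripts under 1 CPM, and the assignment error of transcript estimates was not modelled.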
